A study of Homo sapiens with 10 samples.

Results

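Small nucleolar RNAs (snoRNAs) and small Cajal body RNAs were read out of RNA-Seq of EA.hy926 cells, an established human hybrid line made by fusing umbilical vein endothelial cells with the lung carcinoma line A549. Rows were taken whose symbol began with SNORA, SNORD or SCARNA and whose level, FPKM (fragments per kilobase per 1000000 fragments) times length in kilobases, reached 1 RPM (read per 1000000 reads) in at least 2 of the 10 libraries. With 1 row kept per symbol, 99 of the 552 listed symbols passed, namely 53 of 181 SNORA, 31 of 342 SNORD and 15 of 29 SCARNA, among 13334 symbols that passed in the whole table. The members were thus chosen by the levels themselves, so the levels are given as a description, and the members that passed are not the whole of each class.

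The study deleted the promoter of one of 2 long noncoding RNAs, VEGFA-LNC or VEGFC-LNC, with CRISPR/Cas9. Each deletion had 3 libraries, each from a cell clone, and each had 2 control libraries of its own from cells given guide RNAs but no Cas9, which were cloned in the same way. All 10 libraries were made from rRNA-depleted, column-purified total RNA. The labels do not say that the 2 controls of a set came from separate cultures, so p-values measure the spread between these samples, which may in part be technical. The level of the targeted transcripts was not analysed here, as no row was matched to either.

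Of 8 endothelial markers (PECAM1, CDH5, VWF, TEK, KDR, ERG, TIE1 and ESAM), 7 were at 1 RPM or more in every library, with a summed FPKM of 177 to 732 over the libraries, and of 5 epithelial markers of the carcinoma parent, 3 were (KRT8, KRT18 and KRT7), while EPCAM and CDH1 were not. Libraries held 6743972 to 24197629 reads, the third VEGFC-LNC deletion clone being the shallowest. Over all tested genes, the 2 controls of a set lay much closer to each other than the clones did. Over genes with at least 20 reads in a pair, the SD of the log2 ratio was 0.23 and 0.24 between the 2 controls of a set. Between clones of a deletion it was 0.47 to 1.04, with clone 1 of each deletion the farthest from the others. The controls were less close over the members alone. There the SD was 0.618 between the 2 VEGFA-LNC controls and 0.507 between the 2 VEGFC-LNC controls. Between clones of a deletion the SD over members was 0.536 to 1.204. The lowest, 0.536, was between VEGFA-LNC clones 2 and 3, which was below that of the VEGFA-LNC controls.

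SnoRNAs guide the chemical modification of other RNAs. Box C/D snoRNAs (SNORD) place 2'-O-methyl groups and box H/ACA snoRNAs (SNORA) turn uridines into pseudouridines, mostly in ribosomal RNA, and a few of both kinds act in rRNA processing. SCARNAs carry one or both box types, reside in Cajal bodies and guide modification of spliceosomal RNAs. Most human members are cut from introns of a host gene after splicing, so that host transcription, splicing and trimming all bear on their level, and endothelial cells, like other cells, use them to make ribosomes and spliceosomes.

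The sequence of SNORD104 is shown because it alone passed the test of a difference between the deletions. It was read 5' to 3' from the hg19 (GRCh37) genome over the coordinates of its row, on the strand of the RNA and as DNA. Capitals mark the box C letters TGATGA wherever they occur and the box D letters CTGA within the last 15 bases.

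SNORD104: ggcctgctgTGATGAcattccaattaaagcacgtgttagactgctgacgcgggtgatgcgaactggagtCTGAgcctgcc

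SCARNA5 and SCARNA6 lay in introns of ATG16L1. SCARNA10 (chr12:6619388-6619717, plus strand) lay within NCAPD2, with 75.2% of its bases in exons of a noncoding transcript annotated there, and SNORA73B (chr1:28835070-28835274, plus strand) within RCC1 and SNHG3. SNORD17 (chr20:17943353-17943589, minus strand) lay in SNX5, SNORD133 (chr12:50850354-50850569, plus strand) in LARP4 and SNORD104 (chr17:62223438-62223517, plus strand) in SNHG25. SNORD104 was 80 bases long, and SCARNA10, SNORA73B, SNORD17 and SNORD133 were 205 to 330 bases long.

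Among members with a single genomic copy in the table, TGATGA occurred in 19 of 29 SNORD (65.5%), 11 of 15 SCARNA (73.3%) and 0 of 49 SNORA. CTGA near the end occurred in 27 of 29 SNORD (93.1%), and ACA near the end in 44 of 49 SNORA (89.8%) and 6 of 15 SCARNA (40.0%). Over all 508 listed single-copy rows of the 3 classes, the shares were 45.1% for TGATGA, 56.9% for CTGA and 39.2% for ACA. Only the strand of the RNA was searched, the letters of the motifs may overlap, and other spellings of the boxes were not counted. The boxes therefore followed the class names, with the SCARNA members mixed.

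Long rows passed the filter more often than short ones. The filter is set on FPKM times length, so a longer row reaches it at a lower FPKM. Of 220 rows over 120 bases, 71 passed, against 28 of 332 shorter rows. Median listed length was 134 bases in SNORA members, 81 in SNORD members and 274 in SCARNA members. Only 34 members reached 1 RPM in all 10 libraries (16 SNORA, 8 SNORD and 10 SCARNA), and 16 did so in just 2. SNORA49 and SNORA71B passed with a second highest level of 1.03 RPM each, and SNORD116-17 and SNORD116-19 missed with 0.978 each.

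Some rows can hold reads of other RNAs. In 11 member rows at least 50% of the bases lay in exons of protein-coding transcripts (SCARNA22, SNORA100, SNORA105A, SNORA105B, SNORA31B, SNORA3A, SNORA7A, SNORA86, SNORD141A, SNORD141B and SNORD58B), where reads of the mRNA and of the small RNA cannot be told apart. With exons of noncoding transcripts counted as well, 4 SCARNA, 13 SNORA and 9 SNORD members had at least 50% of their bases in exons. Reads of a spliced noncoding host can be counted there too, as for SCARNA13 in SNHG10 and SNORA17A in SNHG7. SCARNA12 and SCARNA16 are not in that count but lay wholly in exons of further annotated transcripts. SNORA105A and SNORA105B, SNORA59A and SNORA59B, and SNORD141A and SNORD141B were listed at the same positions and share their reads. SNORD141A and SNORD141B, in an exon of the abundant translation factor mRNA EEF1A1, made up most SNORD reads. SNORD141A stood at 497 and 552 RPM in the VEGFA-LNC controls. Both are left out of the sums below with the other rows in protein-coding exons. Rows in exons of noncoding transcripts stayed in the sums, SCARNA2, SCARNA10 and SCARNA13 among them. SNORA7A and SNORA7B (98.6% of aligned positions identical), SNORA10 and SNORA10B (98.5%) and SCARNA9 and SCARNA9L (92.6%) may also exchange reads, and their separate values are uncertain.

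The summed level of each class differed between clones of one deletion as well as between groups. SCARNA members summed to 376 and 312 RPM in the VEGFA-LNC controls, and to 308, 618 and 579 in clones 1 to 3. In the VEGFC-LNC controls the SCARNA sum was 167 and 179, against 320.2, 479 and 317 in the clones. The 3 VEGFC-LNC clones were all above their controls, whereas the VEGFA-LNC clones lay on both sides of theirs. SCARNA2, which guides modification of a spliceosomal RNA, supplied 29.8% to 56.8% of the SCARNA reads in a library.

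SNORA members outside coding exons summed to 200.4 and 234 RPM in the VEGFA-LNC controls, and to 151, 443 and 437 in clones 1 to 3. The same SNORA sum was 109.5 and 132 in the VEGFC-LNC controls and 229, 481 and 383 in the clones. SNORA73B, a member known for a role in rRNA processing, supplied 18.2% to 59.98% of all SNORA reads. Behind it by mean level came SNORA105A, in an HSPD1 exon, at 4.89 to 37 RPM over the libraries, and SNORA86, in an ITGB1 exon, at 9.01 to 15.3. SNORD members outside coding exons summed to 112 and 119.9 in the VEGFA-LNC controls, and to 122, 242 and 288 in the clones. For the VEGFC-LNC set the SNORD sum was 76.2 and 78.4 in the controls and 138, 228 and 128 in the clones. In each class the VEGFC-LNC clones were all above their controls, the VEGFC-LNC controls were below the VEGFA-LNC controls, and clone 1 of the VEGFA-LNC deletion was the lowest clone of its deletion. For SNORD the places of the VEGFC-LNC controls and of VEGFC-LNC clone 1 rested on SNORD133. That member supplied most of the SNORD sum in the VEGFA-LNC controls and in VEGFC-LNC clone 1. Taken singly, 22 of 31 SNORD members were higher in the VEGFC-LNC controls than in the VEGFA-LNC controls.

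**Figure D1:**
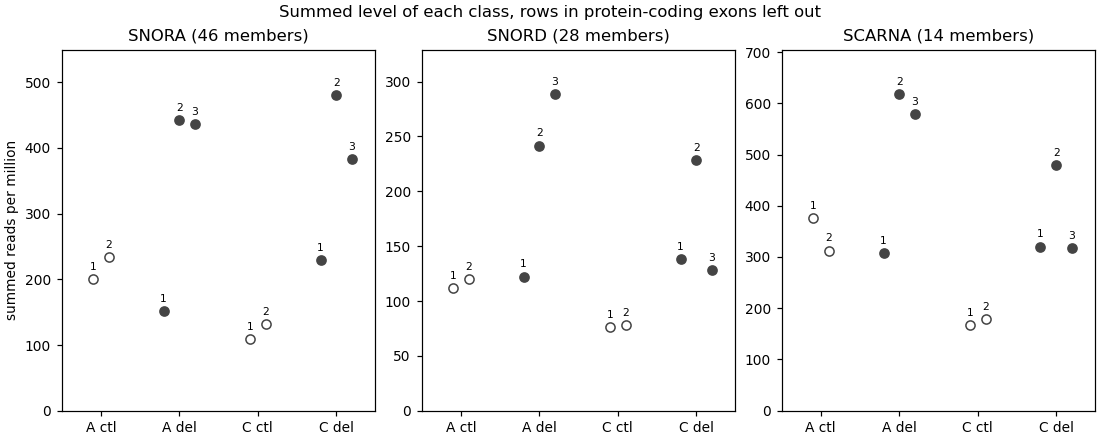
Summed level (RPM, linear axis from 0) of SNORA, SNORD and SCARNA members outside protein-coding exons in each library, with open points for controls (ctl) and filled points for deletion clones (del) of the VEGFA-LNC (A) and VEGFC-LNC (C) sets, numbered by replicate. In each panel the 3 VEGFC-LNC clones lie above both of their controls, and VEGFA-LNC clone 1 lies lower than clones 2 and 3.

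The first comparison asked which members differ when the VEGFA-LNC promoter is deleted. In all, 2 members rose and none fell in the 3 clones against their 2 controls, which is 2 of 99 beside a background of 2.75 percent of all 13334 symbols called (limma, Benjamini-Hochberg FDR under 0.05 and at least 1.5-fold) and 0.735 percent called higher. The 2 were SCARNA10, a mixed-box guide for a spliceosomal RNA, and SNORD104, a box C/D guide for ribosomal RNA. At an unadjusted p under 0.05, 7 members passed, or 7.07% of members against 19.8% of all symbols.

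SCARNA10 stood at 18.6 and 19.5 RPM in the VEGFA-LNC controls and at 41.6, 67.4 and 77.1 in the clones. Every clone was above both controls, and the log2 difference was 1.65 (SE 0.36, limma FDR = 0.049), a 3.14-fold rise on the log2(FPKM + 0.1) scale. SNORD104 stood at 0.288 and 0.221 RPM in the controls, which is 5 reads in each, and at 0.471, 0.488 and 0.403 in the clones, or 7, 9 and 7 reads. Its groups did not overlap either, with a log2 difference of 0.82 (SE 0.17, limma FDR = 0.0437). These few reads limit the precision of the SNORD104 value, and SNORD104 passed the filter only through libraries of the other set. The SNORD104 difference turned to -0.32 when the clones were set against all 4 controls. Neither call was kept when each control pair was averaged to 1 sample. That fit leaves 1 sample in each control group, so it cannot decide whether the calls hold.

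With the replicate number as a block neither SCARNA10 nor SNORD104 was called (limma FDR = 0.0811 for each). No other member was called against the VEGFA-LNC controls. SNORA members had a median log2 difference of 0.25 (34 of 53 higher), SNORD members -0.17 (14 of 31 higher) and SCARNA members 0.49 (11 of 15 higher), beside -0.06 over all tested symbols. In SNORA the extremes were SNORA103 (-1.10, SE 0.45, FDR = 0.222) and SNORA21B (1.39, SE 0.80, FDR = 0.379), in limma's test. In SNORD they were SNORD86 (-1.17, SE 0.94) and SNORD97 (1.57, SE 0.53), and in SCARNA they were SCARNA28 (-0.31, SE 0.53) and SCARNA10. SNORD97 stood at 0.690 and 1.02 RPM in the controls and at 1.08, 4.23 and 3.51 in the clones, without passing the test (limma FDR = 0.151). All 3 clones were above both controls in 12 members and below both in 5, or 12.1% and 5.05%, where all tested symbols gave 15.3 and 23.7 percent.

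The clones disagreed among themselves. Clone 1 was below both controls for 29 of 53 SNORA (54.7%) and 9 of 15 SCARNA members, beside 47.5% of all tested symbols. Clone 3 was above both for 36 SNORA (67.9%) and 12 SCARNA members (80.0%), beside 40.0% of all tested symbols. SNORD members went the other way, with a median difference from the control mean of 0.25 in clone 1, -0.32 in clone 2 and -0.20 in clone 3. Without clone 1 the count of members called rose from 2 to 9, while all symbols called rose from 367 to 1732 (13%). No member was called without clone 2 or without clone 3, where all symbols called fell to 163 and 109. Markers of both parent lineages also differed between the clones. PECAM1, an endothelial adhesion molecule, stood at an FPKM of 13.9, 159 and 56.1 in clones 1 to 3, against 31.2 and 32.8 in the controls. CDH5, the endothelial cadherin, stood at 56.6, 312 and 206, against 110.9 and 116. KRT18, an epithelial keratin, stood at 436, 126 and 193, against 287 and 283. Clone 1 was thus lowest in both endothelial genes and highest in the keratin. The part of these differences in the members' values was not tested.

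The second comparison asked the same of the VEGFC-LNC promoter. SCARNA5 and SCARNA10 rose and no member fell, which is 2 of 99 beside 0.472 percent of all symbols called and 0.15 percent called higher. Both guide modification of spliceosomal RNA, and SCARNA10 was called against both sets of controls. The control sets share no library, but both comparisons took their spread from the same fit. Clones of the 2 deletions with the same number also deviated together, so the SCARNA10 calls are not independent of each other. Neither SCARNA10 call was kept against all 4 controls together or with the replicate number as a block. For the VEGFA-LNC and VEGFC-LNC deletions, all symbols called were 0.217 and 0.412 percent against all 4 controls. With the block they were 1.13 and 0.15 percent. At an unadjusted p under 0.05, 29 members passed, or 29.3% against 18.8% of all symbols.

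SCARNA10 stood at 7.27 and 5.70 RPM in the VEGFC-LNC controls and at 25.8, 59.7 and 45.4 in the clones. The log2 difference was 2.67 (SE 0.36, limma FDR = 0.0212), a 6.37-fold rise, with the groups apart. SCARNA5 stood at 0.211 and 0.702 in the controls, or 2 and 17 reads, and at 4.11, 13.7 and 8.75 in the clones, or 92, 254 and 59 reads. Its log2 difference was 4.25 (SE 0.64, limma FDR = 0.0306), and it was the highest of all tested symbols. SCARNA6, its neighbour in ATG16L1, stood at 0.632 and 1.16 in the controls and at 3.48, 11.4 and 5.34 in the clones, with a log2 difference of 2.76 (SE 0.59) that missed the threshold (limma FDR = 0.0832).

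Several long members had groups apart and large differences without a call. SNORA73B went from 29.8 and 43.7 RPM in the controls to 126, 307 and 215 in the clones (log2 difference 2.49, SE 0.56, limma FDR = 0.092). SNORD133 went from 4.42 and 5.70 to 72.6, 129.7 and 20.5 (3.52, SE 0.70, limma FDR = 0.0735). SCARNA16, a guide for a spliceosomal RNA, went from 1.37 and 1.53 to 8.08, 32.1 and 17.5 (3.5, SE 0.59, limma FDR = 0.0514). In each of these 3 every clone was above both controls, and the clones themselves spread over more than 2-fold. SNORA74A stood at 0.316 and 0.537 in the controls and at 1.07, 7.68 and 5.34 in the clones (3.04, SE 0.80, limma FDR = 0.124). SNORD17 stood at 6.0 and 5.54 in the controls and at 12.2, 37.5 and 28.3 in the clones (2.02, SE 0.53, limma FDR = 0.122).

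**Figure D2:**
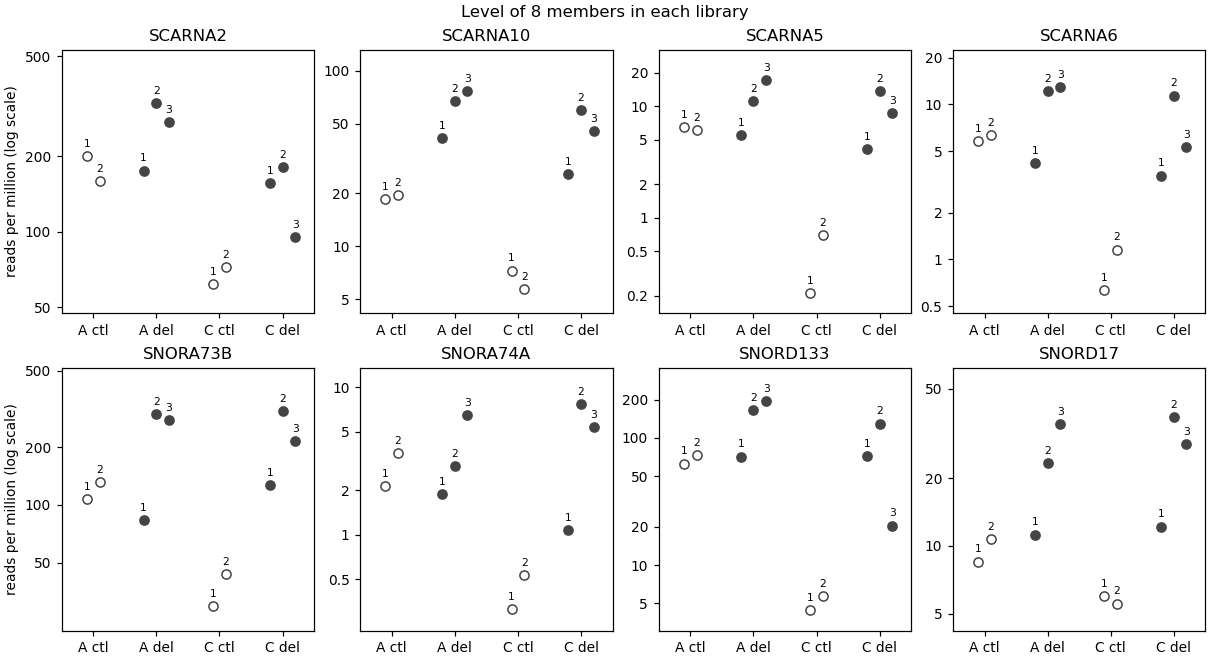
Level in RPM (log axis) of 8 members in each library, with open points for controls (ctl) and filled points for deletion clones (del) of the VEGFA-LNC (A) and VEGFC-LNC (C) sets, numbered by replicate. In all 8 the VEGFC-LNC controls are the lowest points, and every VEGFC-LNC clone lies above them, as for SCARNA10 at 25.8 to 59.7 against 5.70 and 7.27. The 8 were picked with their values known. Of all 99 members, 44 were lower in the VEGFC-LNC than in the VEGFA-LNC controls, and 36 had every VEGFC-LNC clone above both controls.

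The class medians against the VEGFC-LNC controls were 0.58 for SNORA (35 of 53 higher), -0.12 for SNORD (13 of 31 higher) and 0.78 for SCARNA (11 of 15 higher), beside -0.09 over all tested symbols. The lowest members were SNORA21B (-1.15, SE 0.80), SNORD140 (-1.43, SE 0.70) and SCARNA22 (-0.86, SE 0.81), none past the threshold. SNORD97 was 2.36 higher (SE 0.53, limma FDR = 0.0903), with every clone above both controls. SNORD140 stood at 24.6 and 25 RPM in the controls and at 3.75, 10.3 and 20.5 in the clones. Every clone was above both controls in 36 members and below both in 9, or 36.4% and 9.09%, where all tested symbols gave 17.2 and 30.6 percent. Among the 34 members at 1 RPM in all 10 libraries, 27 were higher, with a median of 0.92.

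The remaining SCARNA members can be given by their ranges. SCARNA2 stood at 62.0 and 72.5 RPM in the VEGFC-LNC controls and at 157, 181 and 95.0 in the clones (1.05, SE 0.33, limma FDR = 0.164). SCARNA13, in the host SNHG10, stood at 20.1 and 25 and at 30.8 to 60.4 in the clones, and SCARNA12, in PHB2, at 10.6 and 9.88 and at 16.4 to 39.9. For these 3 the clones were all above the controls, as they were for SCARNA17 (0.74, SE 0.43) and SCARNA28 (0.78, SE 0.53). SCARNA21 stood at 11.2 in each control and at 8.92, 22.6 and 29.1 in the clones. SCARNA7 (-0.22, SE 0.66), SCARNA9 (0.09, SE 0.40) and SCARNA21 (0.69, SE 0.57) overlapped with the controls. SCARNA9L (-0.46, SE 0.44) and SCARNA26A (-0.86, SE 0.57) had every clone below both controls, at under 2 RPM throughout.

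The count rested on single libraries. Members called numbered 0 without clone 2 and 4 without clone 1. All symbols called went from 63 to 23 and to 81 in these fits. Leaving out a control leaves 1 library in its group, so no count is given for such fits here. Without clone 3, the shallowest library, SNORA104 (named after its values were seen) and SNORD133 were called and SCARNA5 and SCARNA10 were not (limma FDR = 0.0696 and 0.0542). The count rose to 19 when VEGFA-LNC clone 1, which is in neither VEGFC-LNC group but shares the estimate of the spread, was left out. All symbols called rose to 1158 (8.68%) in that fit. With each control pair averaged to 1 sample no member was called, and only 1 of all 13334 symbols was. With the replicate number as a block SCARNA5 was called and SCARNA10 was not (limma FDR = 0.0584), so that the count was 1. KRT8 and KRT18 differed by -1.25 and -1.28 in these clones, short of the threshold (limma FDR = 0.163 and 0.202). KRT7, of the same marker list, went the other way, by 0.56 (limma FDR = 0.439). The part of these markers in the members' values was not tested.

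Side by side, 41 members were higher in both deletion comparisons, 22 were lower in both and 18 were higher with VEGFA-LNC deleted and lower with VEGFC-LNC deleted, with another 18 the opposite way. The test of the difference between the deletion effects called 1 member, 1 of 99 beside 1.45 percent of all symbols, and 12 members (12.1%) had an unadjusted p under 0.05, against 18.6% of all symbols. It was SNORD104, at 1.26 and 1.24 RPM in the VEGFC-LNC controls (12 and 30 reads) and 0.892, 0.703 and 0.890 in the clones. Every VEGFC-LNC clone was below both controls (-0.60, SE 0.17, limma FDR = 0.146), and the VEGFC-LNC effect minus the VEGFA-LNC effect was -1.42 (SE 0.24, limma FDR = 0.0307, or 0.0594 with the replicate number as a block). SNORD104 passed the filter only through its high VEGFC-LNC controls, which favours a negative difference. SCARNA5, with the largest difference between the effects (3.57, SE 0.90), missed the threshold at a limma FDR of 0.0953.

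**Figure D3:**
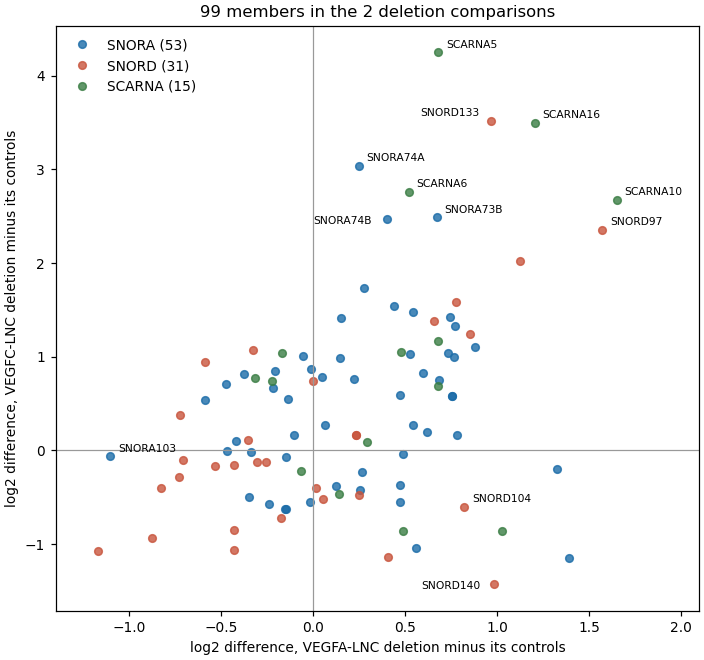
Log2 difference of each of the 99 members in the VEGFA-LNC deletion (x axis) and the VEGFC-LNC deletion (y axis), each minus its own 2 controls, with SNORA in blue, SNORD in red and SCARNA in green. SCARNA5 stands highest at 4.25, SCARNA10 is far up in both (1.65 and 2.67), and SNORD104 lies at 0.82 and -0.60.

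The third comparison set the VEGFC-LNC controls against the VEGFA-LNC controls, neither of which carries a deletion. It uses the same control libraries as the comparisons above, so its values and theirs are not independent. Of 99 members 11 were called, 4 higher and 7 lower in the VEGFC-LNC controls, beside 12.7 percent of all symbols, 2.92 percent higher and 9.76 percent lower. At an unadjusted p under 0.05, 30 members passed, or 30.3% against 31.3% of all symbols. The 7 lower members were SCARNA5 (-3.93, SE 0.70), SNORD133 (-3.75, SE 0.76), SCARNA6 (-2.79, SE 0.64), SCARNA10 (-1.56, SE 0.39), SCARNA2 (-1.42, SE 0.36), SNORD139 (-1.34, SE 0.32) and SNORA94 (-1.04, SE 0.28). Between the 2 control sets, SCARNA5 was thus 6.56 and 6.11 against 0.211 and 0.702 RPM, and SNORD133 was 62.9 and 73.0 against 4.42 and 5.70. The deletion clones of both sets lay between 4.11 and 17.1 for SCARNA5 and between 20.5 and 196 for SNORD133.

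The 4 higher members in the VEGFC-LNC controls were SNORA21B (3.54, SE 0.87), SNORA31B (2.75, SE 0.63), SNORD104 (2.27, SE 0.19) and SNORD76 (1.53, SE 0.38). SNORD104 was a member only because these controls passed the filter, so its call here was favoured by the choice and supports nothing. SNORA21B and SNORA31B passed through the same controls and 1 VEGFC-LNC clone. SNORA21B, in RPL23, rested on 7 and 1 reads in the VEGFA-LNC controls and 17 and 43 in the VEGFC-LNC controls. SNORA31B lay in an exon of TPT1, whose mRNA can supply its reads. SNORD76, one of the snoRNAs of GAS5, stood at 0.920 and 0.930 RPM in the VEGFA-LNC controls and at 3.16 and 2.27 in the VEGFC-LNC controls. The class medians were 0.00 for SNORA, 0.55 for SNORD and -0.81 for SCARNA, beside -0.11 over all symbols. Against all 4 controls together no member was called in either deletion comparison. All symbols called there were 29 and 55 of 13334 (0.217 and 0.412 percent), so none among 99 members is near that share. The SCARNA5 difference with VEGFC-LNC deleted was 2.28 against all 4 controls in place of 4.25.

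Members were also split by listed length, with limits chosen after their values had been seen, so that the counts are a description. The 19 members over 180 bases had a median log2 difference of 0.48 in the VEGFA-LNC deletion and 1.42 in the VEGFC-LNC deletion, and 16 of the 19 (84.2%) had every VEGFC-LNC clone above both controls, beside 17.2 percent of all symbols. The 21 members of up to 100 bases had medians of -0.43 and -0.17, with 17 and 16 of them lower. Between the control sets the long members had a median of -1.28 (15 of 19 lower) and the short ones 0.83 (16 of 21 higher). The other 125 tested rows of over 180 and up to 500 bases had medians of 0.05, -0.38 and 0.41 in the same order of comparisons. All 19 long members were higher in the VEGFA-LNC deletion without clone 1, and 15 with it. Median listed length was 274 bases in SCARNA and 81 in SNORD members, so the splits by length and by class overlap. The part of each was not tested.

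Other short structured RNAs from a list of 29 were read beside the members, of which 4 passed the filter. RPPH1, the RNA of ribonuclease P, stood at an FPKM of 19893 and 21650 in the VEGFA-LNC controls, 17406, 35123 and 30823 in the VEGFA-LNC clones, 3058 and 2981 in the VEGFC-LNC controls, and 15812, 21020 and 15131 in the VEGFC-LNC clones. The VEGFC-LNC controls were far below all other libraries (-2.78, limma FDR = 0.012, against the VEGFA-LNC controls), and the VEGFC-LNC clones were 2.5 above them (limma FDR = 0.057). RMRP, of ribonuclease MRP, differed by 0.97 and 1.63 in the VEGFA-LNC and VEGFC-LNC deletions, the spliceosomal RNU12 by 0.21 and 1.60, and the telomerase RNA TERC, itself an H/ACA RNA, by 0.38 and 0.42, none past the threshold. All 4 had every VEGFC-LNC clone above both controls, beside 17.2 percent of all symbols. RNU12 passed the filter only through VEGFC-LNC clones 2 and 3, at an FPKM of 8.77 and 12.0. Its place among the 4 was thus favoured by the choice and supports nothing. Whether recovery of short RNA differed between libraries was not tested.

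Members and their host genes were set side by side. Of the 99 members, 94 lay within another listed gene on the same strand and 93 had a tested host, in 62 distinct hosts. The member and its host went the same way for 51 of 93 in the VEGFA-LNC deletion and 46 of 93 in the VEGFC-LNC deletion. No host was called by limma with VEGFC-LNC deleted (17 of 62 at an unadjusted p under 0.05) and 6 of 62 were with VEGFA-LNC deleted, all lower, beside 2.75 percent of all symbols. NCAPD2, the host of SCARNA10 and a condensin subunit, differed by -0.06 and -1.87 where SCARNA10 rose by 1.65 and 2.67. ATG16L1, the autophagy gene that holds SCARNA5 and SCARNA6, differed by -0.16 and 0.12, and LARP4, the host of SNORD133, by -0.09 and -0.43. Per length, 29 members had a mean FPKM above that of their host.

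**Figure D4:**
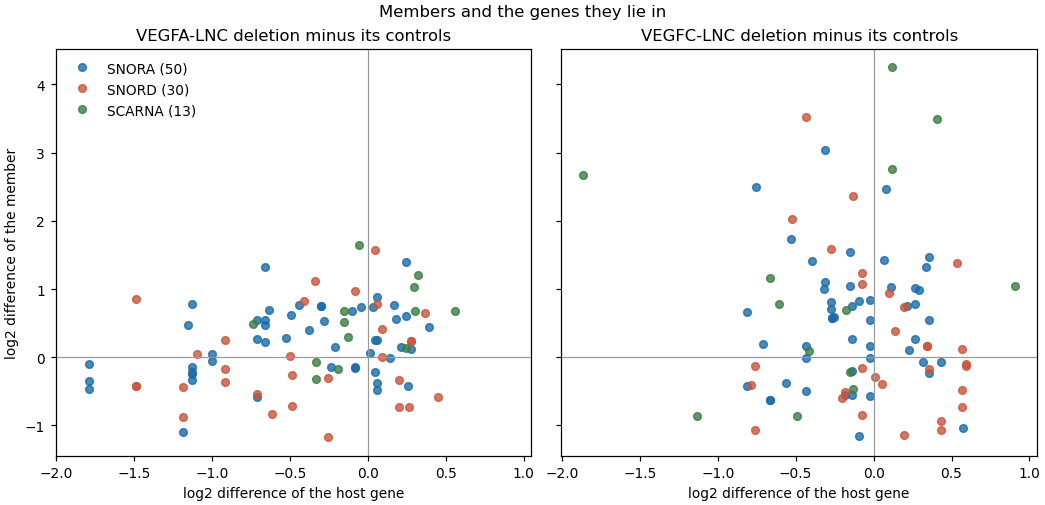
Log2 difference of each of 93 members (y axis) against that of its host gene (x axis) in the VEGFA-LNC and VEGFC-LNC deletions, each minus its own controls, with SNORA in blue, SNORD in red and SCARNA in green. Points fill all quadrants, with 51 and 46 of the 93 members on the same side of 0 as their host.

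Of the noncoding snoRNA host genes (the SNHG genes and GAS5), 4 of 19 tested fell in the VEGFA-LNC deletion, beside 2.02 percent of all symbols called lower, with 18 of 19 lower and a median of -0.76. The 4 were SNHG12 (-1.79), SNHG1 (-1.49), SNHG15 (-1.36) and SNHG7 (-1.0). SNHG12 stood at an FPKM of 38.2 and 37.7 in the controls and at 11.1, 8.49 and 13.8 in the clones, with the groups apart. In the VEGFC-LNC deletion the median was -0.07 and none was called by limma, with 2 at an unadjusted p under 0.05. The VEGFC-LNC controls were lower than the VEGFA-LNC controls in 4 called hosts of the list, SNHG7, SNHG12, SNHG15 and GAS5, beside 9.76 percent of all symbols called lower. No member was called lower in the VEGFA-LNC deletion.

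Genes that build and house these particles were read from fixed lists, and none of 27 was called by limma in either deletion, beside backgrounds of 2.75 and 0.472 percent. At an unadjusted p under 0.05, 3 and 12 of the 27 passed with VEGFA-LNC and VEGFC-LNC deleted, beside 19.8 and 18.8 percent of all symbols. The 4 box C/D core proteins (FBL, the methyltransferase, with NOP56, NOP58 and SNU13) had a median of -0.06 with VEGFA-LNC deleted and -0.68 with VEGFC-LNC deleted, where all 4 were below both controls in every clone, as were 30.6 percent of all symbols. The 4 H/ACA core proteins (DKC1, the pseudouridine synthase, with NHP2, NOP10 and GAR1) had medians of 0.02 and -0.28, and the 9 assembly factors -0.05 and -0.23. The 5 Cajal body genes (COIL, SMN1, SMN2, WRAP53 and NOLC1) had medians of -0.23 and -0.41, with SMN1 and SMN2 near-identical copies that share reads. The 5 genes of 3'-end and cap processing, PARN and TGS1 among them, had medians of 0.04 and -0.58. In these bulk libraries fewer cells making an RNA and less RNA per cell cannot be told apart.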

How the data were processed

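RNA-Seq had been done by the study on 10 EA.hy926 libraries in 4 groups. Per the labels and the study's methods, reads were trimmed with Trim Galore (version 0.4.4), aligned with STAR (version 2.5.4b) to hg19 and counted with featureCounts, on rRNA-depleted RNA made into strand-specific single-end libraries. The authors deposited 1 table of FPKM values per RefSeq transcript. How the FPKM values were made is not given in the sources used here. The listed length of 97 of the 99 member rows is 1 base shorter than the row's sequence.

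The row with the highest mean FPKM was kept for each of 27946 symbols. Symbols at 1 RPM (reads per 1000000 reads, FPKM times length in kilobases) or more in at least 2 libraries were tested, 13334 in all. The fit was limma (version 3.58.1, R version 4.3.3) with a mean-variance trend on log2(FPKM + 0.1) over 4 groups, with 6 residual degrees of freedom and Benjamini-Hochberg FDR over all tested symbols. A symbol was called at FDR under 0.05 and a fold change of at least 1.5. Fold changes on this scale understate the change of low genes. The steps of the FPKM values gave whole reads for 100% of the low values checked, within 0.1 reads, which set the depth of each library. The fit was tested on simulated data. Sequences were read with Python (version 3.11.15) from GRCh37, aligned with Biopython (version 1.88), and host genes and exons came from the table and from GENCODE annotation lifted to that build.

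Members and lists were chosen with earlier results of these data known. Named members were those called in a comparison, the 3 highest of each class, every SCARNA, the extremes of each class and deletion comparison, and those next to the filter. Length limits were chosen after values were seen. Alternatives were another pseudocount, filter, scaling or model, averaged or pooled controls, a replicate block and leaving out each library. Sequences of other members are not reported here.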

Additional observations from a re-analysis of the deposited data

Results flagged for a closer look

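SNORD104, in SNHG25, differed between the effects of the 2 deletions by the test of the difference itself. The VEGFC-LNC effect minus the VEGFA-LNC effect was -1.42 on the log2 scale (SE 0.24, limma FDR = 0.0307), with every VEGFA-LNC clone above and every VEGFC-LNC clone below its own controls. It rests on 5 to 30 reads per library, and the 2 control sets themselves differed by 2.27. It passed the filter only through the 2 VEGFC-LNC controls (1.26 and 1.24 RPM), a choice that favours a negative difference, so the test is no independent evidence of one. With the replicate number as a block the FDR was 0.0594. With voom on recovered reads the FDR of this difference was 0.202. Groups held 2 or 3 libraries, too few to look for a single library far from the others.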

How the results depend on the processing

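For the VEGFA-LNC deletion, the VEGFC-LNC deletion, the control comparison and the difference of effects, members called numbered 2, 2, 11 and 1, and all symbols called 367, 63, 1690 and 194. Members called were 1, 0, 7 and 0 with voom on recovered reads (all symbols 551, 56, 1679 and 214). With control pairs averaged they were 0 in each, where all symbols gave 0, 1, 0 and 0, which says nothing of the members. A minimum in all 10 libraries gave 0, 1, 4 and 0, on 34 members (all symbols 255, 30, 1475 and 139 of 11560). No filter gave 1, 0, 2 and 1 (all symbols 616, 83, 1598 and 452 of 27946). A pseudocount of 0.5 on RPM gave 1 for VEGFA-LNC and 0 for the difference (all symbols 409 and 234). Median-of-ratios scaling gave 1 for VEGFA-LNC (all symbols 359). Against all 4 controls both deletions gave 0 (all symbols 29 and 55), and SNORD104 turned to -0.3157 for VEGFA-LNC. Leaving out single libraries gave 0 to 9, 0 to 19, 1 to 24 and 0 to 3, where the highest 9, 19 and 24 came without VEGFA-LNC clone 1 (all symbols 1732, 1158 and 3068). The replicate block gave 0, 1, 15 and 0 (all symbols 151, 20, 1628 and 86). Clones and same-numbered controls did not deviate together (r of -0.04 to 0.05), while clones of the 2 deletions with the same number did (r of 0.22 to 0.55, 5 of 6 clones correlating best with their own number). The labels do not say what a number marks. The correlations are a hint from the data that numbers link the clones, not the clones and their controls.

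Median-of-ratios scaling shifted the median of all symbols from -0.09 to 0.00 with VEGFC-LNC deleted and from -0.11 to 0.00 between the controls, and the share of calls that were higher from 31.7% to 46.3% and from 23.0% to 39.3%. Class medians moved in few settings. With the minimum in all 10 libraries, SNORD was 0.72 and 0.77 in the VEGFA-LNC and VEGFC-LNC deletions, and SNORA 0.92 in the latter. Against all 4 controls SNORD was -0.50 and 0.27. Leaving out 1 library gave ranges of -0.02 to 0.62 for SNORA, -0.38 to 0.03 for SNORD and 0.29 to 0.93 for SCARNA with VEGFA-LNC deleted, and 0.38 to 0.72, -0.37 to 0.13 and 0.55 to 1.04 with VEGFC-LNC deleted. Rows in coding exons, left out in an alternative chosen after seeing the data, held none of the members called in a deletion, so both counts stayed at 2 by construction. Depth limits the members under 1 RPM most. The cause of these moves was not tested beyond the settings themselves.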
